A study of Ovis aries with 27 samples.

Results

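Transcripts of the transforming growth factor-beta (TGF-beta) isoforms TGFB1, TGFB2 and TGFB3, of the activin subunit INHBA and of the integrin subunit ITGB6 were measured on arrays in the septum of the heart, which is muscle dividing the ventricles, from 27 fetal sheep. Probes were assigned to the 5 genes by gene name, transcript accession or description. The genes had 8 of the 15008 probes on the array and were 5 of 940 genes named there. They were selected on their log2 difference between 140 d and 130 d of gestation in control fetuses, so that difference is given here as a description without a test. The difference between the same ages in the cortisol arm rests on other arrays for its means and was tested, with the spread estimated over all 4 groups, the selecting control arrays among them.

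Every ewe was infused, with cortisol, the main glucocorticoid of sheep, at 1 mg/kg/d or with vehicle. Cortisol fetuses at 140 d (n = 7) and control fetuses at 140 d (n = 8) were collected between 139 and 144 d of gestation after about 25 d of infusion. Cortisol fetuses at 130 d (n = 6) and control fetuses at 130 d (n = 6) were collected between 129 and 131 d after about 10 d of infusion, although another label has infusion starting at about 115 d in all ewes. Each age was a cohort of its own, so an effect of age cannot be told apart from one of cohort or of infusion length. Only 7 ewes carried the 8 control fetuses at 140 d, and since the twins among them were not identified, each fetus counted as 1 sample. The remaining fetuses were taken as independent.

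TGF-beta isoforms are secreted in latent form, with the growth factor held inside its own prodomain. The integrin made of the alpha v subunit and ITGB6 binds the prodomain of TGFB1 and of TGFB3 and frees the growth factor, and ITGB6 is known mainly from epithelia. A pair of INHBA chains forms activin A, which signals through type II and type I activin receptors to SMAD2 and SMAD3, as TGF-beta does through its own receptors. In the developing heart TGFB2 is known for its part in forming valves and septa, and TGF-beta signalling drives fibroblasts to make collagen.

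Each probe was an oligonucleotide of 60 bases, and the sequences are shown because they set which transcript a level refers to and which probes can count as separate measurements. The TGFB1 and TGFB2 probes each lie in the part of the coding sequence that encodes the mature growth factor. The capitals in the TGFB3 pair mark the 59 bases that both probes share, in the part encoding the prodomain. The capitals in the INHBA pair mark the TAG stop codon, and these probes also share 59 bases.
TGFB1: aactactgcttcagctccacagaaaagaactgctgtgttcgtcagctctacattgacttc
TGFB2: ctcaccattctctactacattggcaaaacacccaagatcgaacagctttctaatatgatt
TGFB3, first probe: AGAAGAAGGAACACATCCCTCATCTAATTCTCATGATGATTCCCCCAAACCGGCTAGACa
TGFB3, second probe: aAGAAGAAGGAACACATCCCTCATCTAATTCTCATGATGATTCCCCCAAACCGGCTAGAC
INHBA, first probe: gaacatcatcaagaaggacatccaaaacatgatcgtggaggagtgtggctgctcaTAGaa
INHBA, second probe: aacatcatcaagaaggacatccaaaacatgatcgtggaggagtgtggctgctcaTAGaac
No probe shared a run longer than 8 bases with a probe of another member. The pairs of TGFB3 and INHBA overlap almost completely, so the second probe of each is a technical repeat. The ITGB6 probes, at positions 2704 to 2763 and 2764 to 2823 of their target transcript, did not overlap. Genome positions were not used here, since the files name no build for these probes.

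Between 77.0% and 87.0% of the spots on an array were well above background, and 0 were saturated. The 75th percentile of intensity was 602 to 1079 in cortisol and 757 to 954 in control fetuses at 140 d, and 977 to 1195 in cortisol and 977 to 1273 in control fetuses at 130 d. The number of arrays sets the precision of every value. Levels are log2 intensities relative to the array's own 75th percentile and are compared between groups for 1 probe at a time. A pair of arrays stood apart from their groups, with a median absolute deviation from the group mean of 0.404 for cortisol 140 d replicate 4 and 0.317 for control 140 d replicate 1, against 0.125 to 0.207 for the others, on the log2 scale. Values without them are given where they move a result. The arrays lay on 5 slides, of which 3 held all 4 groups.

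INHBA fell with age in the cortisol arm, and it was the member with the largest difference there. In tissue RNA, fewer cells of a type cannot be told apart from less RNA per cell. The other members did not pass the test in that arm: TGFB2, TGFB1 and TGFB3 had lower mean levels at 140 d and ITGB6 a higher one. In control fetuses INHBA, TGFB2 and TGFB1 were also lower at 140 d and ITGB6 was higher, while the TGFB3 means lay within 0.06 of each other on the log2 scale. Of the 5 members, 1 passed in the cortisol arm, where 13.5% of the 12778 tested probes passed limma's test (8.52% lower and 4.94% higher at 140 d). The control comparison, on which the members were picked, had 19.1% of probes past the same threshold. Members are not counted there, since a count on the values that picked them would be no test.

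**Figure D1:**
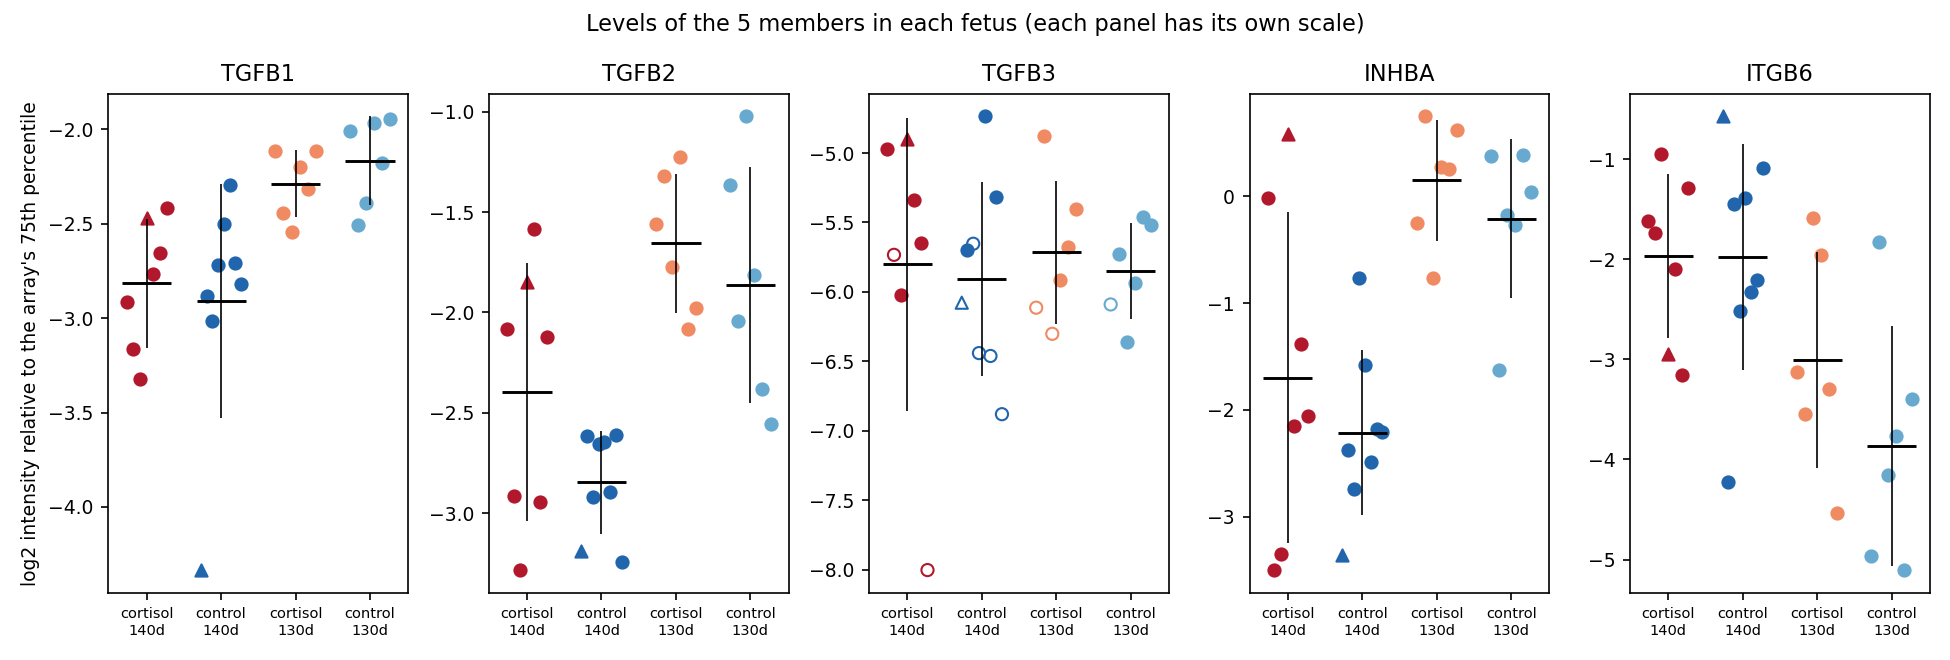
Log2 intensity of the brightest probe of each member, relative to the array's 75th percentile, in each of the 27 fetuses by group; bars are group means with SD, open symbols are spots not well above background, and triangles are the 2 arrays that stood apart (cortisol 140 d replicate 4 and control 140 d replicate 1). INHBA levels of the cortisol group at 140 d reach from -3.50 to 0.58, while ITGB6 varies widely in every group.

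TGFB1 encodes the isoform best known for its action on fibroblasts and immune cells. Its level was -3.32 at the lowest, -2.77 at the median and -2.42 at the highest in cortisol fetuses at 140 d, against -2.55, -2.26 and -2.11 in cortisol fetuses at 130 d. All 7 older fetuses lay below the mean of the younger ones, although the ranges overlapped. The log2 change was -0.53 ± 0.22 (SE, 95% interval -0.98 to -0.08), which did not pass (adjusted p = 0.108, limma). Without control 140 d replicate 1, whose TGFB1 level entered the shared estimate of spread, the same change passed (adjusted p = 0.0139, the lowest of 41 alternatives, which reached 0.766). It also passed when only the 2 cortisol groups were fitted (adjusted p = 0.0440), and was -0.59 without cortisol 140 d replicate 4 (adjusted p = 0.0726). In controls the lowest, median and highest levels were -4.33, -2.77 and -2.30 at 140 d, against -2.50, -2.09 and -1.95 at 130 d. The value of -4.33 belongs to control 140 d replicate 1, and the other 7 older controls lay between -3.02 and -2.30. The control difference was -0.74 with that array and -0.54 without it. Ordered by mean, TGFB1 was lowest in control fetuses at 140 d (-2.91 ± 0.62, SD, n = 8; -2.71 ± 0.24, n = 7, without replicate 1), then in cortisol fetuses at 140 d (-2.82 ± 0.34, n = 7), cortisol fetuses at 130 d (-2.29 ± 0.18, n = 6) and control fetuses at 130 d (-2.17 ± 0.24, n = 6). The groups of the same age differed by less than their SDs, and leaving out replicate 1 turned the order of the older pair.

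TGFB2 is the isoform whose loss disturbs heart septation in mice. In cortisol fetuses its level was -3.28, -2.12 and -1.58 at 140 d (lowest, median, highest), against -2.08, -1.67 and -1.22 at 130 d. Of the older fetuses 3 had levels of -3.28 to -2.92, below every younger one, and 4 had levels of -2.12 to -1.58, inside or close to the younger range. The change of -0.74 ± 0.26 (SE, 95% interval -1.27 to -0.21, with 6 of 7 fetuses below the younger mean) missed the threshold (adjusted p = 0.0542, limma). It passed with slide as a fixed block (-0.87, adjusted p = 0.0163) and without cortisol 140 d replicate 4 (-0.83, adjusted p = 0.0281), as it did in 8 of 41 alternatives (adjusted p from 0.0163 to 0.836), and within slides 2, 3 and 4 it was -1.66, -0.22 and -0.91. In controls TGFB2 was -3.24, -2.78 and -2.61 at 140 d, against -2.55, -1.93 and -1.02 at 130 d. The control ranges did not overlap, and the difference was -0.98, or -0.94 without control 140 d replicate 1. By group mean TGFB2 was lowest in control fetuses at 140 d (-2.85 ± 0.26), followed by cortisol fetuses at 140 d (-2.40 ± 0.64), control fetuses at 130 d (-1.86 ± 0.59) and cortisol fetuses at 130 d (-1.66 ± 0.35, SD), and each step was smaller than the larger SD of its 2 groups.

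TGFB3 signal was near the limit of detection, with both probes well above background on 17 of 27 arrays. The first probe was above it in 5 of 7 cortisol and 3 of 8 control fetuses at 140 d, and in 4 of 6 cortisol and 5 of 6 control fetuses at 130 d. Its level was -8.00, -5.65 and -4.90 in cortisol fetuses at 140 d (lowest, median, highest), against -6.30, -5.80 and -4.88 in those at 130 d. The value of -8.00, in cortisol 140 d replicate 7, stood alone, and that spot was not well above background. The change was -0.09 ± 0.38 (SE, 95% interval -0.87 to 0.70, adjusted p = 0.914, limma), and for the overlapping second probe it was 0.18 ± 0.24 (adjusted p = 0.676). In controls TGFB3 was -6.88, -5.89 and -4.73 at 140 d, against -6.36, -5.83 and -5.46 at 130 d, a difference of -0.06, or -0.04 without control 140 d replicate 1. The interval in the cortisol arm includes a change as large as that of TGFB2. The group means, -5.80 ± 1.05 in cortisol and -5.91 ± 0.70 in control fetuses at 140 d, and -5.72 ± 0.52 in cortisol and -5.85 ± 0.35 in control fetuses at 130 d (SD), lay closer together than any of their SDs.

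INHBA was the member that moved most in the cortisol arm. Its level was -3.50, -2.06 and 0.58 in cortisol fetuses at 140 d (lowest, median, highest), against -0.76, 0.27 and 0.75 in cortisol fetuses at 130 d. Of the 7 older fetuses, 5 lay between -3.50 and -1.38, below every younger fetus of the arm. The 2 others, replicates 1 and 4, had -0.02 and 0.58, inside the range of the younger fetuses. The log2 change was -1.85 ± 0.53 (SE, 95% interval -2.93 to -0.76), a level 3.59-fold lower at 140 d (adjusted p = 0.0208, limma, 6 of 7 fetuses below the 130 d mean). The second probe gave -1.82 ± 0.52.

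The INHBA call held in 35 of 41 alternatives (adjusted p from 0.00246 to 0.860), and its direction in each of them. Without cortisol 140 d replicate 4 the change was -2.22 (adjusted p = 0.00246), and without cortisol 140 d replicate 3 it was -1.57 and no longer passed (adjusted p = 0.0531). The call was also lost with normexp background correction (-1.54, adjusted p = 0.0584) and when only the 2 cortisol groups were fitted (adjusted p = 0.0687), a fit in which TGFB1 was the 1 member to pass. With slide as a block it was kept, and within slides 2, 3 and 4, each with 4 or fewer arrays of the arm, it was -3.67, -0.54 and -1.82 and did not pass. Cortisol 140 d replicate 4 was the older array of slide 3 with the high value. In controls INHBA was -3.36, -2.29 and -0.76 at 140 d, against -1.62, -0.07 and 0.39 at 130 d. The lowest younger control, replicate 2 at -1.62, lay apart from the other 5 (-0.27 to 0.39). The mean INHBA level was 4.00-fold lower in controls at 140 d than in those at 130 d, and without control 140 d replicate 1 the log2 difference was -1.84. By group mean INHBA was lowest in control fetuses at 140 d (-2.21 ± 0.77), then in cortisol fetuses at 140 d (-1.70 ± 1.55), control fetuses at 130 d (-0.21 ± 0.74) and cortisol fetuses at 130 d (0.15 ± 0.56, SD), and each step was smaller than the larger SD of its 2 groups. From the lowest to the highest of the 27 fetuses INHBA spanned 19.0-fold.

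ITGB6 had the widest range between fetuses, 4.53 on the log2 scale or 23.2-fold for the brighter probe. In cortisol fetuses it was -3.15, -1.74 and -0.95 at 140 d (lowest, median, highest), against -4.53, -3.21 and -1.59 at 130 d. The ranges overlapped between -3.15 and -1.59, and the change of 1.04 ± 0.56 (SE, 95% interval -0.11 to 2.19, with 6 of 7 fetuses above the younger mean) did not pass (adjusted p = 0.229, limma). It was 1.20 without cortisol 140 d replicate 4, and 1.99, -0.75 and 0.76 within slides 2, 3 and 4. In controls ITGB6 was -4.23, -1.83 and -0.57 at 140 d, against -5.10, -3.96 and -1.83 at 130 d. The highest older control was replicate 1, which stood apart over all probes, and the control difference was 1.89 with it and 1.69 without it. Control 140 d replicate 2 (-4.23) had a level like those of the younger controls, and control 130 d replicate 2 (-1.83) one like those of the older. The second, dimmer ITGB6 probe, above background on 21 of 27 arrays, gave changes of 1.20 ± 0.70 in the cortisol arm (adjusted p = 0.266) and 2.01 ± 0.68 in controls (SE). By mean, ITGB6 was highest and almost equal in cortisol (-1.97 ± 0.82) and control fetuses at 140 d (-1.97 ± 1.13), then in cortisol fetuses at 130 d (-3.01 ± 1.08) and control fetuses at 130 d (-3.87 ± 1.20, SD), with no neighbours in this order farther apart than the larger SD of the 2.

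Maternal cortisol was compared with vehicle at each age, with control arrays that had also served in picking the members. None of the 5 members passed at either age. At 140 d INHBA was 0.52 ± 0.49 higher with cortisol (SE, 95% interval -0.49 to 1.52) and TGFB2 0.45 ± 0.24 (-0.04 to 0.94), while TGFB3 (0.11 ± 0.36), TGFB1 (0.09 ± 0.20) and ITGB6 (0.00 ± 0.52) lay closer to 0 (limma, adjusted p between 0.808 and 0.999). INHBA was 0.14 higher without cortisol 140 d replicate 4, and the TGFB1 difference was -0.11 without control 140 d replicate 1. At 130 d the largest difference was that of ITGB6, 0.86 ± 0.58 (SE, 95% interval -0.34 to 2.05, with 5 of 6 fetuses above the control mean), followed by INHBA at 0.36 ± 0.55 and TGFB2 at 0.21 ± 0.27, with adjusted p of 1.00 throughout (limma). TGFB3 differed by 0.13 ± 0.40 and TGFB1 by -0.12 ± 0.23. Over all 12778 probes limma called 0 at 140 d (0%; 727 had an unadjusted p under 0.05) and 0 at 130 d (0%; 455 unadjusted). The intervals of INHBA and ITGB6 include differences of 1 log2 unit on the high side.

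The cortisol difference at 140 d minus that at 130 d equals the age change in the cortisol arm minus the one in controls, on which the members were selected, so it is given for them as a description. Over all probes limma called 0 for it (0%; 743 had an unadjusted p under 0.05). For ITGB6 it was -0.85 ± 0.78 (SE, 95% interval -2.46 to 0.75). For TGFB2, TGFB1, INHBA and TGFB3 it was 0.24 ± 0.36, 0.22 ± 0.30, 0.15 ± 0.73 and -0.03 ± 0.53. Without control 140 d replicate 1 it was -0.65 for ITGB6, 0.012 for TGFB1 and -0.0090 for INHBA.

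**Figure D2:**
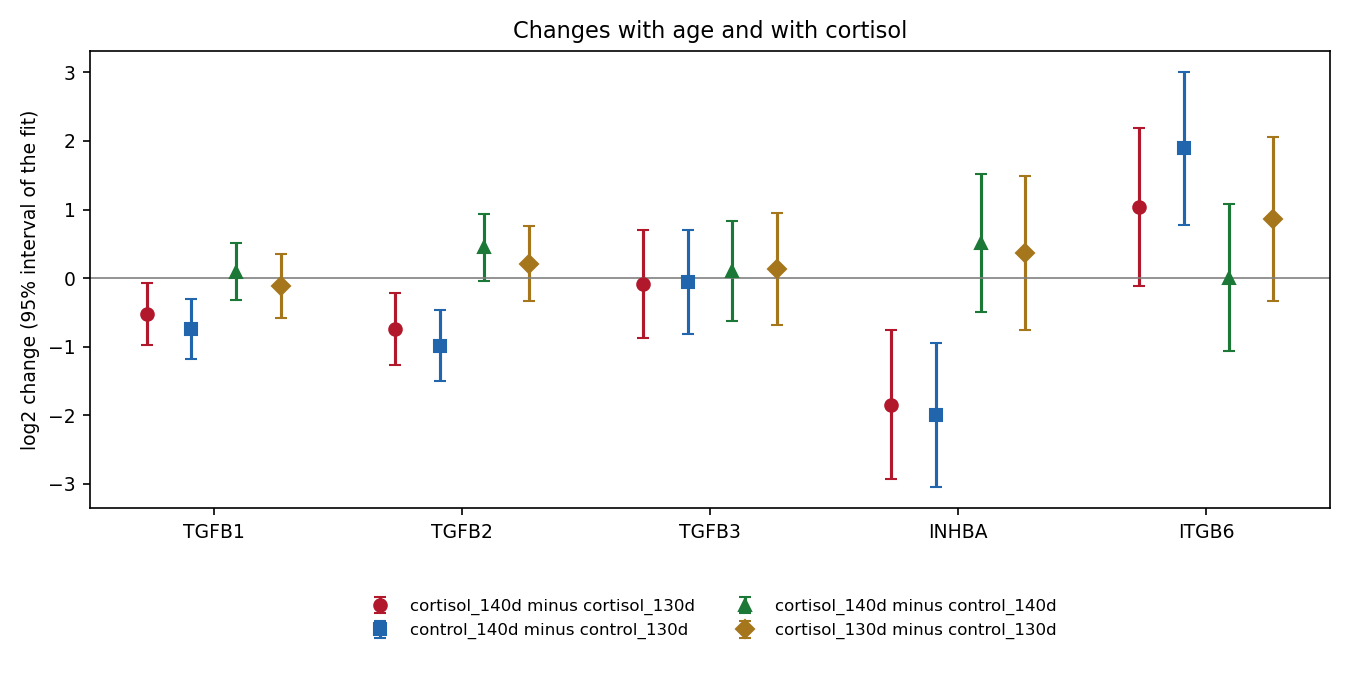
Log2 changes of the 5 members with the 95% interval of the fit, for age in the cortisol arm (circles) and in controls (squares), and for cortisol against control at 140 d (triangles) and at 130 d (diamonds). INHBA changed by -1.85 with age in the cortisol arm, and every interval for cortisol against control includes 0.

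The isoforms were compared through their differences within an array, so that the scaling of the array cancels. Relative to cortisol fetuses at 130 d, the difference TGFB2 minus TGFB3 was -0.65 (SE 0.52, 95% interval -1.80 to 0.49). For TGFB1 minus TGFB3 the value was -0.44 (SE 0.53, -1.60 to 0.72), and for TGFB1 minus TGFB2 it was 0.21 (SE 0.25, -0.34 to 0.77). None of the 3 pairs passed an exact 2-sided permutation test over the 1716 arrangements of 7 and 6 arrays (p = 0.228, 0.455 and 0.411, each 0.455 after adjustment over the 3 pairs). That outcome turned on the dim TGFB3 spot of cortisol 140 d replicate 7. Without it the differences against TGFB3 were -1.07 for TGFB2 and -0.87 for TGFB1 (exact permutation test, adjusted p = 0.0162 for both; over their alternatives the adjusted p reached 0.697). With arrangements restricted to within slides (11 arrays, 108 arrangements) TGFB2 against TGFB3 was -1.13 (exact permutation p = 0.00926, adjusted 0.0278) and TGFB1 against TGFB3 -0.77 (adjusted p = 0.0833). That restriction leaves out the same array, and cortisol 140 d replicate 1, since neither shared a slide with a younger cortisol fetus. The TGFB3 spot was well above background in only 5 of 7 older and 4 of 6 younger cortisol fetuses, so a lower TGFB3 level could hardly be measured, and these differences do not show whether TGFB3 behaved unlike TGFB1 or TGFB2.

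**Figure D3:**
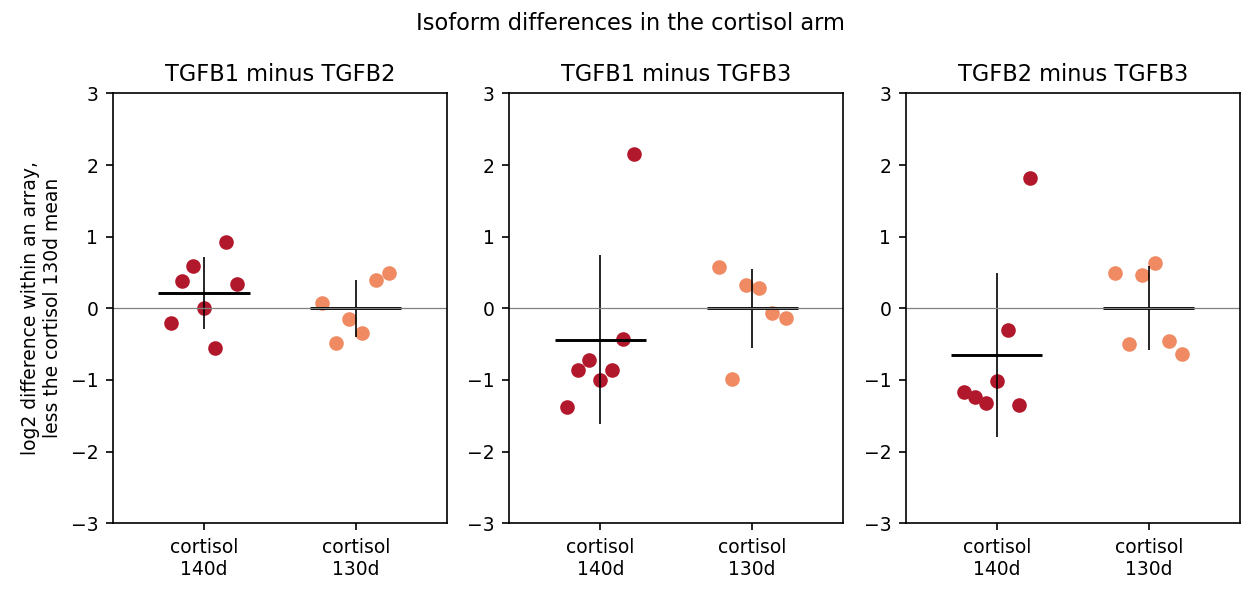
Difference in log2 intensity between 2 TGF-beta isoforms on the same array, less the mean of cortisol fetuses at 130 d, in cortisol fetuses at 140 d and at 130 d; bars are means with SD. The single high point at 140 d in the panels with TGFB3 is replicate 7, in which TGFB3 was -8.00.

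Fetuses with less INHBA than their group tended to have more ITGB6. With group means removed, the levels had a Pearson r of -0.51 and a Spearman rho of -0.54 over 27 fetuses (permutation within groups, p = 0.00398 and 0.00483; adjusted over the 10 pairs of members, 0.0378 and 0.0483). The sign was negative in every group, with r of -0.56 in cortisol and -0.30 in control fetuses at 140 d, and -0.71 in cortisol and -0.93 in control fetuses at 130 d. It was also negative in slides 2, 3 and 4 (-0.70, -0.77 and -0.12). Leaving out the 2 fetuses farthest in INHBA gave -0.52, and leaving out the 2 arrays that stood apart gave -0.45. All values on an array share its scaling. The control fetuses here are those on which the members were picked, and their INHBA and ITGB6 differed with age in opposite directions. Removing group means leaves any spread of age inside a group (129 to 131 d or 139 to 144 d), and its part was not tested. TGFB1 and INHBA varied together, with r of 0.51 (permutation p = 0.00756, adjusted 0.0378) and rho of 0.48 (p = 0.0216, adjusted 0.106). The rank correlation did not pass after adjustment. Pearson's r was 0.42 without the 2 fetuses farthest in TGFB1, and with normexp background correction r was 0.22 (permutation p = 0.325). The other 8 pairs had r between -0.42 and 0.41, and none passed after adjustment.

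**Figure D4:**
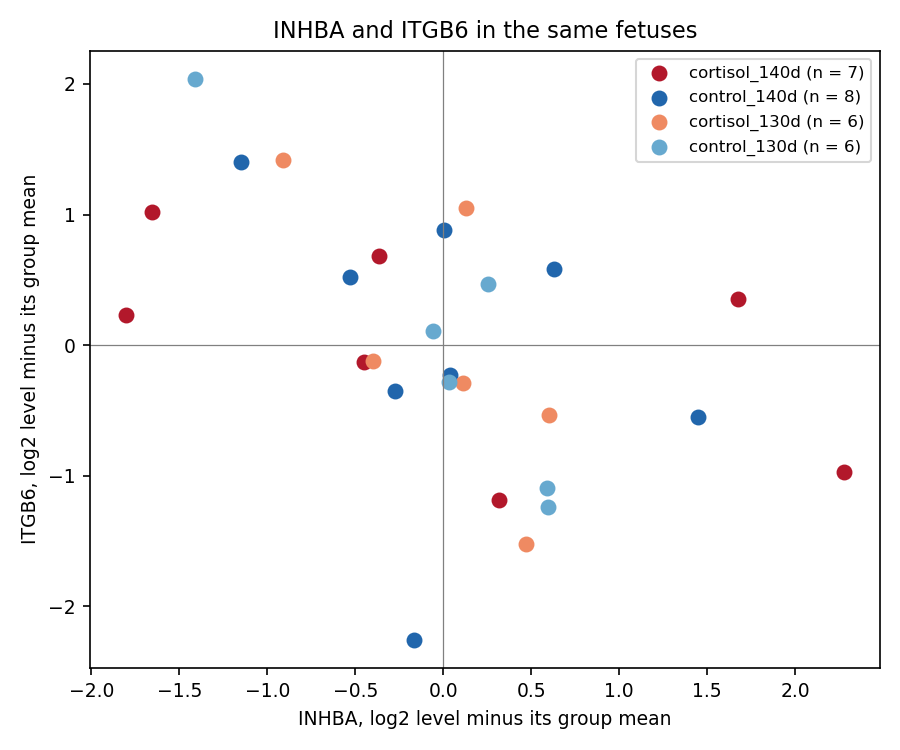
INHBA (horizontal axis) against ITGB6 (vertical axis) in the 27 fetuses, each as a log2 level minus its group mean, coloured by group. Fetuses to the left, with less INHBA than their group, lie mostly in the upper part, with a Pearson r of -0.51.

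Other named genes were ranked by how closely their levels followed each member over the 27 arrays, among 765 genes. These are descriptions, since age differences and array scaling are shared by all points, and Spearman's rho was 0.544 to 0.884 for the genes named. INHBA was followed most closely by IL18, an inflammatory cytokine, with a Pearson r of 0.89 (0.82 with group means removed, as for each second value that follows), then by LGALS1, a galectin (0.84; 0.62), and TIMP1, an inhibitor of matrix metalloproteinases (0.83; 0.79). ITGB6 was followed by LPL, which frees fatty acids from lipoproteins (0.80; 0.76), by the growth factor FGF1 (0.78; 0.70) and by CHCHD3, a mitochondrial inner membrane protein (0.73; 0.61). For TGFB1 the genes given here were the fetal growth factor IGF2 (0.87; 0.81) and the actin-severing protein CFL1 (0.83; 0.74). For TGFB2 they were CPE, which trims peptide hormones (0.85; 0.72), the VEGF receptor KDR (0.79; 0.65) and the transcription factor IRF3 (0.76; 0.61). TGFB3, near background, had lower values, led by GHRHR, the receptor for growth hormone-releasing hormone (0.64; 0.67), the zinc transporter SLC39A13 (0.61; 0.63) and CYP4F21 (0.60; 0.60).

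Of 140 listed genes of the pathway, 48 had a tested probe, and in the cortisol arm 4 of them fell with age and 0 rose, beside 8.52% of all probes lower and 4.94% higher. The ligand BMP7, a bone morphogenetic protein, had levels of -0.65 to 0.55 in cortisol fetuses at 140 d and 0.30 to 0.90 in those at 130 d, which overlapped. Its log2 level fell by 0.57 ± 0.17 (SE, limma's adjusted p = 0.0286), 1 of 6 ligands. The type I receptor ACVR1 fell by 0.80 ± 0.13 (SE, adjusted p = 0.000266), 1 of 7 receptors, with levels of -2.60 to -1.78 in cortisol fetuses at 140 d and -1.55 to -1.19 in those at 130 d, which did not overlap. SMAD2, which carries the signal of TGF-beta and activin receptors into the nucleus, fell by 0.39 ± 0.09 (SE, adjusted p = 0.00688), 1 of 6 SMAD genes and their regulators. The ranges of SMAD2 did not overlap either, at -1.35 to -0.82 in cortisol fetuses at 140 d and -0.75 to -0.54 in those at 130 d. Among 4 other integrin subunits ITGA4, a partner of ITGB1 in leukocyte adhesion, passed (adjusted p = 0.0124, limma). Its levels were -6.81 to -5.82 in cortisol fetuses at 140 d and -5.90 to -4.70 in those at 130 d, which overlapped. Both its probes were not well above background in any of 7 older cortisol fetuses, while the brighter was in 6 of 6 younger ones. Its mean signal was therefore at least 1.71-fold lower at 140 d. That bound is set per array by the dimmest probe above background or the spot itself, whichever is higher.

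By their brightest probes, none of the 6 binding proteins and inhibitors, 10 TGF-beta activators and 9 target genes passed in the cortisol arm. A dimmer probe passed for the target gene COL3A1, a fibrillar collagen (-0.82, adjusted p = 0.0275; brightest probe -0.59, 0.0670), and for SMAD4, the partner that SMAD2 and SMAD3 bind (-0.29, adjusted p = 0.0209; brightest probe -0.10, 0.437, limma). The median log2 changes were -0.30, -0.22 and 0.04 in those lists, and -0.18, -0.04, -0.24 and -0.10 for ligands, receptors, SMAD genes and other integrins, against -0.04 over all tested probes. In the control comparison, which had selected the members, 11 of the 48 genes were past the same threshold, 5 higher and 6 lower at 140 d, beside 9.77% and 9.35% of all probes. ACVR1 (-0.73 ± 0.12) and SMAD2 (-0.35 ± 0.09, SE) were among those lower, as a description. Cortisol against control called 0 of the 48 at either age. Without cortisol 140 d replicate 4 the cortisol arm had 10 of 48 genes past the threshold, 9 lower and 1 higher. In that fit 2419 of 12778 probes passed, against 1720 with the array kept. With normexp background correction 1 of the genes passed, ACVR1, and 339 of the probes. ACVR1, SMAD2 and ITGA4 passed in each of the 27 fits with 1 array left out, and BMP7 in 23 of them. Centring on the median or quantile normalization added TIMP3, an inhibitor of matrix metalloproteinases, as higher at 140 d (1.00 and 1.01, limma's adjusted p = 0.0319 and 0.0366). Then 1 of 3 and 1 of 4 called genes rose, and the share of called probes that were higher was 63.7% and 46.6%, against 36.7%. TIMP3 also passed as higher with slide as a fixed (1.02, adjusted p = 0.0244) or random block (0.92, 0.0431) and with replicate number as a block (1.03, 0.0159). The same held for the authors' table (1.00, 0.0312) and without control 140 d replicate 2 or cortisol 140 d replicate 5 or 7. BMP7 and SMAD2 missed the threshold when arrays were centred on their medians, and ITGA4 after quantile normalization. BMP7 also missed it without cortisol 130 d replicate 1, 3 or 6 or cortisol 140 d replicate 2.

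**Figure D5:**
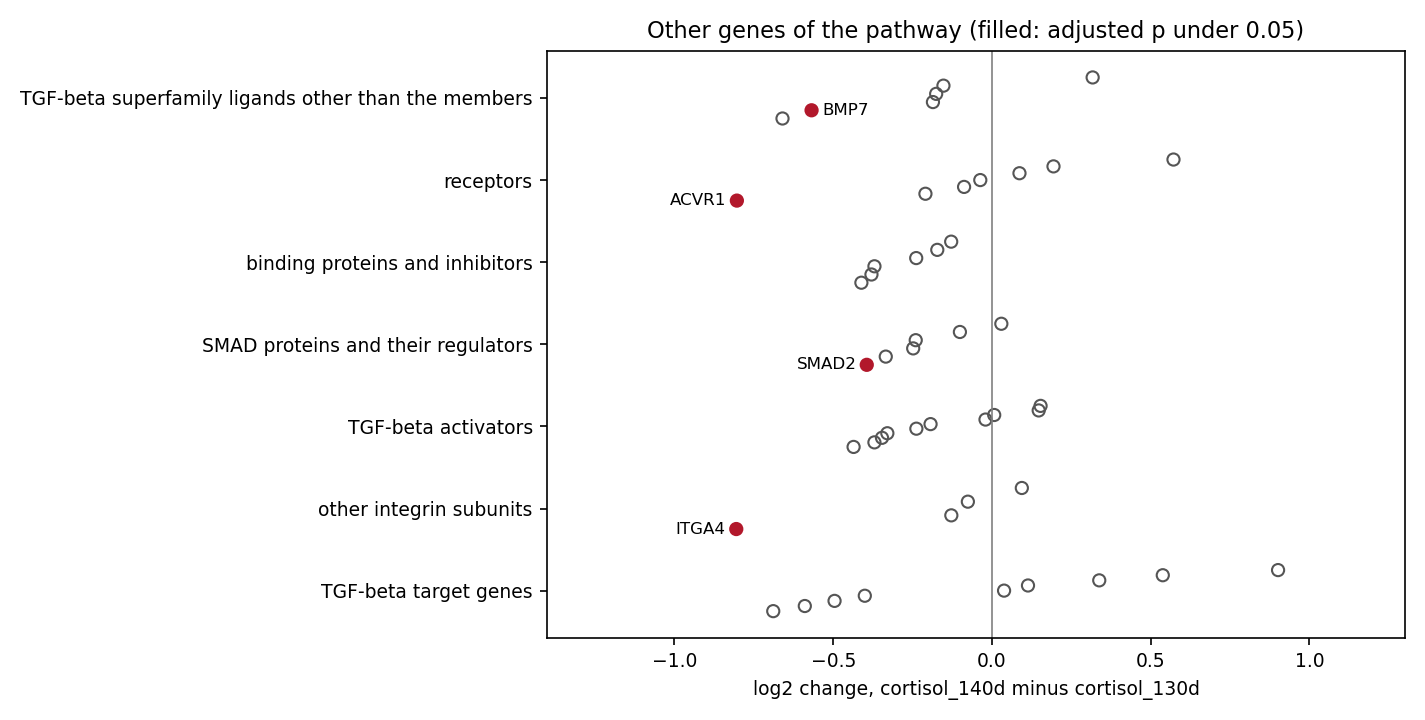
Log2 change between cortisol fetuses at 140 d and at 130 d for the 48 measured genes of 7 pathway lists, 1 circle per gene; filled circles passed limma's test at an adjusted p under 0.05. The 4 that passed, BMP7, ACVR1, SMAD2 and ITGA4, all lie below 0.

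Of 29 measured markers of other cell types and of heart muscle, 3 passed by their brightest probe between the ages of the cortisol arm. Over all tested probes 13.5% passed there, 4.94% as higher at 140 d. The 3 were each higher at 140 d: the endothelial VEGF receptor FLT1 (1.46, adjusted p = 0.00114), LPL of the adipocyte list (0.87, adjusted p = 0.00363) and the lipid droplet protein PLIN1 (0.48, adjusted p = 0.0136, limma). Of the 4 endothelial genes measured, 2 had lower means at 140 d, and the median change was 0.03. Dimmer probes of the red blood cell gene AHSP (-2.37, adjusted p = 0.0366; brightest probe -1.92, 0.0770) and of the fibroblast gene COL3A1, given above, passed as lower. The part of these markers in the differences of the members was not tested. Summed over the 5 of 10 fibroblast markers measured, as multiples of the array's 75th percentile, the level was 111 to 337 (median 147) in cortisol and 80.6 to 183 (139) in control fetuses at 140 d, against 185 to 234 (211) in cortisol and 142 to 222 (190) in control fetuses at 130 d. Most of this fibroblast sum was VIM and DCN, with mean log2 levels of 6.89 and 5.48, against -2.42 to -1.76 for COL1A2, FBLN1 and COL3A1. The highest sum, 337, was in cortisol 140 d replicate 4, which also had the highest INHBA level of its group, and the lowest, 80.6, in control 140 d replicate 1, which had the lowest TGFB1 and INHBA of its group. This was not particular to fibroblast markers. Cortisol 140 d replicate 4 also had its group's highest endothelial (6.67) and immune (2.40) sums and lowest level of the heart muscle gene MB (182). Control 140 d replicate 1 had its group's lowest endothelial (2.49) and immune (0.647) sums and highest MB (430). Smooth muscle and red blood cell sums of these arrays lay inside the range of their groups. Adipocyte markers (5 of 7 measured, LPL among them) summed to 4.36 to 7.71 in cortisol and 4.56 to 8.43 in control fetuses at 140 d, against 2.45 to 3.93 in cortisol and 2.80 to 5.56 in control fetuses at 130 d, and the highest sum was in control 140 d replicate 1, which also had the highest ITGB6. Most of that sum was LPL, with a mean log2 level of 2.22 in cortisol fetuses at 140 d, and LPL is also the gene that followed ITGB6 most closely. Of the same list, LEP (0.04), FABP4 (-0.29) and UCP1 (-0.89) did not pass between the ages of the cortisol arm. Epithelial or mesothelial markers (4 of 15 measured: WT1, SFTPA1, SFTPB and SFTPC) summed to 0.428 to 1.39 in cortisol and 0.432 to 0.644 in control fetuses at 140 d, against 0.496 to 0.559 in cortisol and 0.403 to 0.661 in control fetuses at 130 d. The listed keratins, EPCAM and CDH1, the defining epithelial genes, had no tested probe under the symbols used. In that list, too, cortisol 140 d replicate 4 had the highest value.

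Immune markers (7 of 14 measured) summed to 0.757 to 2.40 in cortisol and 0.647 to 1.02 in control fetuses at 140 d, against 0.793 to 1.45 in cortisol and 1.00 to 2.90 in control fetuses at 130 d. Endothelial markers (4 of 8) summed to 3.92 to 6.67 and 2.49 to 5.45 in the older cortisol and control fetuses, against 3.20 to 4.45 and 2.72 to 4.75 in the younger. Red blood cell markers (2 of 8) summed to 1.58 to 33.6 and 3.02 to 28.0 in the older cortisol and control fetuses, against 19.0 to 43.6 and 16.8 to 56.4 in the younger. The smooth muscle marker CNN1 (1 of 5) ranged from 6.27 to 40.2 and 6.13 to 99.0 in the older cortisol and control fetuses, against 9.58 to 30.1 and 6.95 to 25.2 in the younger. Of 18 cardiomyocyte markers only myoglobin, MB, was measured under the symbols used. It was well above background on 27 of 27 arrays, so the label of heart muscle was checked by that gene alone.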

How the data were processed

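RNA of the fetal heart septum was labelled with Cy3 and hybridised to 1-colour Agilent arrays, 1 per fetus. The authors deposited scanner files of spot intensity, background-subtracted and detrended but not scaled between arrays, per the file headers, and the submitters' processing notes name Agilent Feature Extraction 10.1.1.1. Flags in those files marked the outlying spots and those well above background. The authors' deposited table of log2 values equalled log2 of those intensities minus 1 constant per array (largest residual SD 2.05e-06), with column medians of 0.105 to 0.145; how that constant was set is not given in the sources used here.

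Here, levels were log2 intensity minus the array's 75th percentile, without outlying spots and with spots of a probe averaged. Probes above background on 6 or more arrays (12778) were fitted with limma 3.58.1 (R 4.3.3; 4 group means, no covariate), with calls where the adjusted p (Benjamini-Hochberg) was below 0.05; 83 of them lacked a value on some array, none of them of a member. The brightest tested probe stood for a gene. Isoform and correlation tests were permutations (SciPy 1.17.1), 100000 for the correlations. The members and the gene lists were chosen with earlier results of these data known. The text names the members, pathway genes called in the cortisol arm or in a cortisol comparison, and the 3 named genes most correlated with each member, of which 1 is not reported here. COL3A1, SMAD4, TIMP3 and the marker genes were named after their values were seen. The fit was tested on simulated data. Alternatives were background correction, scaling, filters, slide, replicate number, probe choice and leaving out arrays.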

Additional observations from a re-analysis of the deposited data

Results flagged for a closer look

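Of the 20 sets of levels (5 members in 4 groups), 3 had a sample far from the others by Dixon's test, which flags about 1 set in 20 by chance. TGFB1 was -4.33 in control 140 d replicate 1, against -3.02 to -2.30 in the other 7, and that array also stood apart over all probes. TGFB3 was -8.00 in cortisol 140 d replicate 7, against -6.02 to -4.90 in the other 6, on a spot not well above background. INHBA was -1.62 in control 130 d replicate 2, against -0.27 to 0.39 in the other 5, and the same fetus had the highest ITGB6 of its group (-1.83).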

How the results depend on the processing

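Over the scalings, filters, blocks and slides tried, INHBA, TGFB1 and TGFB2 kept lower means at 140 d and ITGB6 a higher one in both arms, apart from ITGB6 within slide 3 of the cortisol arm (-0.75). Calls were less steady: 0 to 2 members were called in the cortisol arm when 1 array was left out, 2 without weak probes (well above background on all 27 arrays) or with slide as a fixed or random block, and 0 with normexp background correction or within slides 2, 3 and 4. Over the 27 fits with 1 array left out TGFB2 passed in 5 and TGFB1 in 1. The counts of probes in the cortisol and control age comparisons were 339 and 536 with normexp, against 1720 and 2443. Within slides 2, 3 and 4 they were 1, 0 and 29 and 3, 5 and 2, with 0 members, and 1 probe was called for cortisol at 140 d in slide 2; fewer arrays entered those fits. A median shift raised every log2 change by 0.10 in the cortisol arm and 0.09 in controls, and the share of higher probes, 36.7% and 51.1% here, became 63.7% and 70.6%. The authors' table gave 64.1% and 71.3%, and normexp 52.2% in the cortisol arm.

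Some differences turned sign, among them larger ones within single slides, and the cause was not tested. TGFB3 with age in the cortisol arm was 0.15 (quantile), 0.015 (median shift and the authors' table), 0.019 (slide block), 0.99 (slide 3), 0.045 (mean of the probes) and -0.24 to 0.28 with 1 array left out. For cortisol at 140 d TGFB3 was -0.26 (slide block), -0.91 (slide 4), -1.78 (slide 5) and -0.045 to 0.47 with 1 array left out. ITGB6 was -0.0049 (normexp), -0.53 (slide 3), -1.76 (slide 4) and -0.32 to 0.20, TGFB1 -0.15 (slide 4) and -0.11 to 0.18, TGFB2 -0.20 and -0.30 (slides 2 and 4) and INHBA -0.56 (slide 2). For cortisol at 130 d TGFB1 was 0.27 (normexp), TGFB2 -0.080 and INHBA -0.018 (slide 3), and TGFB3 -0.053 (slide 4) and -0.034 to 0.25. For the difference of the cortisol effect between ages TGFB1 was -0.18 (normexp), INHBA -0.15 (slide block), -1.43 and -0.025 (slides 2 and 4) and -0.22 to 0.45, TGFB2 -0.46 and -0.73 (slides 2 and 4), ITGB6 1.00 (slide 2), and TGFB3 0.11 (quantile), 0.89 (slide 3), 0.10 (mean of the probes) and -0.18 to 0.34; 0 to 2 probes were called there with 1 array left out. The isoform differences against TGFB3 were -1.07 to -0.53 for TGFB2 and -0.87 to -0.29 for TGFB1 with 1 array left out, and -1.13 for TGFB2 with slide as a block.

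Replicate numbers recur across groups, but the fetuses came from different ewes, and the deviations of same-numbered arrays correlated between -0.165 and 0.362. With replicate number as a block TGFB3 was 0.059 with age in the cortisol arm and -0.033 for cortisol at 140 d, and 1 probe was called for the difference of the cortisol effect. Replicate number as a block called 7 of 48 pathway genes, beside 1789 of 12778 probes in the cortisol arm. Slide as a fixed and random block called 8 and 7 of the genes, beside 1899 and 1972 probes. Slides 2 and 3 alone called 0 each. Normexp called 1 beside 339 probes, against 4 beside 1720 in the main fit. These counts and the correlations' alternatives were chosen after seeing the data.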
